A study of Mus musculus with 16 samples.

Results

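The RNAs described here encode chromatin modifiers and remodellers, chosen by gene symbol alone as the genes of the Kdm, Kmt, Setd, Ash1l and Ash2l, Kat, Hdac, Brd, Smarc, Chd and Arid families. Of the 12900 RNAs measured, 89 belonged to these families. Grouped by symbol, they were 18 lysine methyltransferases (with the core subunit Ash2l and the actin methyltransferase Setd3), 16 lysine demethylases, 14 SWI/SNF subunits and 10 CHD remodellers. The others were 10 histone deacetylases, 7 lysine acetyltransferases, 6 other ARID proteins, 5 bromodomain proteins and 3 other ATPases of the SNF2 kind. The table had already been filtered on low values, and every family gene listed in it is described. The mean level of a member over the samples ranged from −0.12 to 8.32 log2 CPM (log2 of counts per 1000000 reads), with a median of 4.43.

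RNA-Seq was carried out on NIH/3T3 cells, an established line of mouse fibroblasts, which carried 1 of 2 lentiviral, doxycycline-inducible constructs. Both constructs hold the coding part of human β-globin. In the HBB control line this is joined to the 3′UTR of β-globin itself, and in the Pkp4 cUTR line to the 3′UTR of mouse Pkp4, an RNA that localizes to protrusions. Both lines were selected with geneticin as stable lines, without a statement on whether they derive from single clones, and received 1 μg/ml doxycycline for 3 days. Serum-starved cells were left for 2 h on filters with 3.0 μm pores, were exposed to LPA from the lower chamber for 1 h and were fixed in 0.3% paraformaldehyde for 10 min. Protrusions (Ps) were scraped from below and cell bodies (CB) from above, on separate filters, which gave 4 groups of 4 samples each. The 4 replicates are described by the study as independent, and p-values measure the spread between them.

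Chromatin is opened, closed and marked inside the nucleus by proteins of these families, though some members act on other substrates, as described below. Lysine methyltransferases and acetyltransferases write marks on histone tails, demethylases and deacetylases remove them, and bromodomains bind acetylated lysines. SWI/SNF, CHD and ISWI ATPases slide, evict or space nucleosomes with energy from ATP. Their mRNAs, in contrast, are translated in the cytoplasm, so that protrusions, which hold cytoplasm but not the nucleus, can contain them. The comparison of protrusions with cell bodies asked which of these mRNAs made up a larger or smaller share of the RNA in each compartment.

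The base composition of these RNAs differed between members higher and lower in protrusions, as described further on, and short pieces of the coding sequence show what that difference looks like. Each piece is an in-frame run of 30 bases whose GC content is nearest to that of the whole coding part, 5′ to 3′, from the GENCODE vM21 transcript with the longest coding part, and capitals mark G and C. For 4 of the 14 members higher in protrusions of both lines, those with the highest mean enrichment, the windows held 12 or 13 such bases of 30.
Smarca5, coding bases 160 to 189: GaCaCCGaGatGGaGGaaGtatttGatCat
Arid4b, coding bases 1 to 30: atGaaGGCCCttGatGaaCCtCCttatttG
Chd1, coding bases 16 to 45: GatGaaGaaaGtGttaGaaatGGCaGCGGa
Smarcad1, coding bases 1 to 30: atGaatCttttCaaCttGGaCCGttttCGC

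For the 4 most depleted of the 33 members lower in protrusions of both lines, the windows held 16 to 19 bases of G or C.
Arid5b, coding bases 91 to 120: GGCaaaCCaaGaatCttGtCCCttGGCGaC
Arid3b, coding bases 40 to 69: aaGCaGCCaCaGCaGCCtCtGCtaCaGatG
Kmt2d, coding bases 37 to 66: tCaGaCCCaGCaGCtGatGGaCttGCaGCC
Setd1b, coding bases 4 to 33: GaGaaCaGtCaCCCCCaCCaCCaCCaCCaG
The whole coding part had a GC content of 42.0% in Smarca5 and Arid4b, 44.8% in Chd1, 40.3% in Smarcad1, 52.5% in Arid5b, 56.7% in Arid3b, 59.4% in Kmt2d and 61.8% in Setd1b. In GRCm38 these genes lie at chr8:80698507-80739497 (Smarca5, minus strand), chr13:14063232-14199603 (Arid4b, plus), chr17:15704967-15772610 (Chd1, plus), chr6:65042583-65116061 (Smarcad1, plus), chr10:68092520-68278740 (Arid5b, minus), chr9:57790353-57836793 (Arid3b, minus), chr15:98831669-98871204 (Kmt2d, minus) and chr5:123142193-123168629 (Setd1b, plus), and every window lies in coding exons.

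Samples held 18660287 to 31260831 reads on genes, so that 3 reads, the lowest count taken as detected, came to 0.0890 to 0.176 CPM, a limit of counting error alone. The authors' library factors were 0.828 to 0.974 in protrusions and 1.07 to 1.11 in cell bodies. The level counted as Pkp4, whose 3′UTR the construct carries, was higher in the Pkp4 cUTR line. The log2 fold change ± standard error was 4.44 ± 0.20 in cell bodies and 3.32 ± 0.19 in protrusions. Reads of the construct and of the endogenous gene were not told apart. Of 9 fibroblast markers, 8 were in the table, summing to 19272 to 31539 CPM per sample, with Thy1 not listed, and the 8 markers of other cell types that were listed summed to between 62.7 and 70.4 CPM in every sample. The 6 listed RNAs known to stay in the nucleus summed to 480 to 728 CPM in cell bodies and 164 to 320 CPM in protrusions. Most of this sum was Neat1, with a geometric mean of 612 CPM in HBB cell bodies and 219 CPM in HBB protrusions. The 6 did not all go 1 way, since 3 were lower in protrusions and 2 higher in each line (adjusted p under 0.05 from limma). Replicate 4 of the cell bodies of each line stood apart from the other 3 of its group. Over the 33 members lower in both lines, the median level centred on each member's mean was 0.22 in the HBB sample against 0.34 to 0.41 in the other 3, and −0.03 in the Pkp4 cUTR sample against 0.16 to 0.34, where protrusions had −0.52 to −0.16. These 33 were chosen by the same contrast in these samples. Over the 14 members higher in both lines, replicate 4 lay further from the protrusions (0.18 to 0.33) instead. It had −0.43 against −0.28 to −0.12 in HBB cell bodies and −0.31 against −0.27 to −0.24 in Pkp4 cUTR cell bodies. Counts are given with and without both replicates 4. Since RNA was pooled over whole fractions and is given as a share of the library, fewer molecules per protrusion and fewer protrusions carrying an RNA cannot be told apart.

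More members were lower than higher in protrusions. In the HBB line 16 of 89 members were higher in protrusions and 34 were lower (limma, adjusted p under 0.05 by the Benjamini-Hochberg method), against 28.3% higher and 28.9% lower among all 12900 RNAs. In the Pkp4 cUTR line 17 were higher and 39 lower, against 28.2% and 28.5%. The median log2 fold change over the members was −0.18 in the HBB line and −0.14 in the Pkp4 cUTR line, where that over all RNAs was 0.01 in each. In both lines at once 14 members were higher (24.1% of all RNAs) and 33 were lower (25.3% of all RNAs), and no member was called in opposite directions. Without replicate 4 of the cell bodies of both lines the counts were 14 higher and 43 lower in the HBB line and 16 higher and 42 lower in the Pkp4 cUTR line, with 12 higher and 38 lower in both. The shares of all RNAs under that fit are not given here, so a change particular to the members cannot be read from these counts.

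The split depended on how libraries were scaled. With each library scaled to its own total of reads, 7 members were higher and 54 lower in the HBB line, and 8 were higher and 56 lower in the Pkp4 cUTR line. Among all RNAs it gave 15.0% higher and 43.5% lower in the former and 13.9% and 45.5% in the latter. The same choice moved the median of all RNAs to −0.23 and −0.25, and the members' median lay below it by 0.18 in the HBB line and by 0.15 in the Pkp4 cUTR line, as with the authors' factors. Smarca5, Smarcad1, Chd1, Setd2, Setd8 and Smarce1 were higher in protrusions of both lines under every scaling tried, while the other 8 members higher in both lines lost at least 1 call when scaled to library totals.

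**Figure D1:**
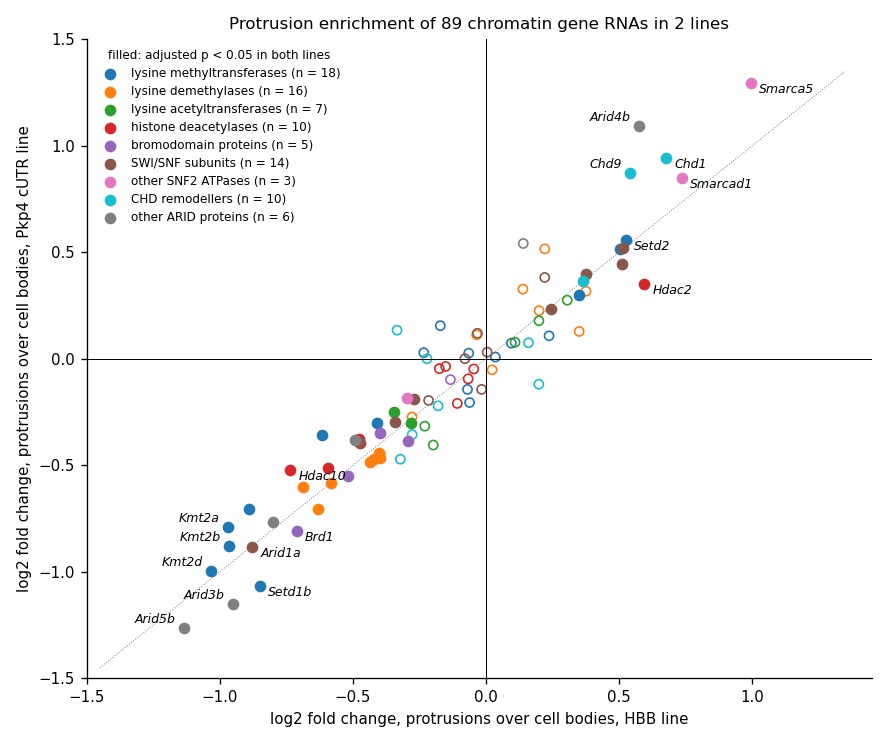
Log2 fold change of protrusions over cell bodies in the HBB line (x axis) and in the Pkp4 cUTR line (y axis) for the 89 members, coloured by role. Filled points passed an adjusted p under 0.05 in both lines (14 higher, 33 lower), the dotted line marks equal values, and Smarca5 lies at the upper end and Arid5b at the lower end.

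Most differences were small. A change of more than 2-fold together with an unadjusted p under 0.05 was reached by 0 members higher (4.54% of all RNAs) and 2 lower (4.0%) in the HBB line, the latter being Kmt2d and Arid5b. The same size was reached in the Pkp4 cUTR line by 2 members higher, Smarca5 and Arid4b (5.07% of all RNAs), and 3 lower, Setd1b, Arid5b and Arid3b (2.92%). Smarca5 in the HBB line missed this threshold narrowly, at 1.99-fold.

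The member with the highest enrichment in protrusions of each line was Smarca5. It encodes the ISWI ATPase SNF2H, which spaces nucleosomes. Its level was 2.84, 2.59, 2.47 and 2.79 log2 CPM in replicates 1 to 4 of the HBB cell bodies and 3.55, 3.81, 3.60 and 3.69 in the HBB protrusions. For the Pkp4 cUTR line the values were 2.42, 2.19, 2.63 and 3.07 in cell bodies and 3.65, 4.10, 3.80 and 3.95 in protrusions. Every protrusion sample lay above every cell-body sample of its line. The log2 fold change was 1.00 ± 0.15 in the HBB line (adjusted p = 1.45e-05 from limma) and 1.30 ± 0.15 in the Pkp4 cUTR line (adjusted p = 1.18e-06), or 2.46-fold in the latter.

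Smarcad1, an ATPase that acts in heterochromatin upkeep and DNA repair, was also higher. It ran from 2.50 to 2.73 log2 CPM in HBB cell bodies and from 3.29 to 3.42 in HBB protrusions, and from 2.58 to 2.72 and 3.35 to 3.54 in the Pkp4 cUTR line. The fractions did not overlap, and the log2 fold changes were 0.74 ± 0.09 and 0.85 ± 0.09 (adjusted p = 1.3e-06 and 3.92e-07 from limma). Smarcal1, which rewinds DNA at stalled replication forks, was lower in protrusions, by −0.30 ± 0.08 in the HBB line and −0.19 ± 0.08 in the Pkp4 cUTR line (adjusted p = 0.00276 and 0.043). In the latter its fractions overlapped, and the call was lost without any 1 of 8 of the libraries, with log2 fold changes between −0.19 and −0.13.

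Of the 10 CHD remodellers, 3 were higher in both lines (Chd1, Chd9 and Chd3) and none was lower in both. Among all RNAs 24.1% were higher in both and 25.3% lower. Chd1, which follows elongating RNA polymerase and recognises methylated lysine 4 of histone H3, had 2.73, 2.37, 2.21 and 2.24 log2 CPM in HBB cell bodies and 2.95, 3.24, 3.05 and 3.03 in HBB protrusions. Values in the Pkp4 cUTR line were 2.70, 2.21, 2.50 and 2.45 in cell bodies and 3.00, 3.69, 3.47 and 3.56 in protrusions, so that the fractions did not overlap in either line. The log2 fold changes were 0.68 ± 0.15 and 0.94 ± 0.15 (adjusted p = 0.00108 and 4.06e-05 from limma). Chd9 had log2 fold changes of 0.54 ± 0.20 and 0.87 ± 0.19 (adjusted p = 0.0297 and 0.000824). In the HBB line it rested on single libraries, since replicate 4 of the HBB cell bodies had 0.64 log2 CPM where the other 3 had 1.59 to 1.74. Without that library its value was 0.33 (adjusted p = 0.085), and the call was also lost without replicate 2 or replicate 4 of the HBB protrusions (0.48 and 0.46, adjusted p = 0.0816 and 0.0906).

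Chd3 and Chd4 are alternative ATPases of the NuRD complex, which joins nucleosome remodelling to histone deacetylation. Chd3 was higher in protrusions by 0.36 ± 0.11 in the HBB line and 0.37 ± 0.11 in the Pkp4 cUTR line (adjusted p = 0.0102 and 0.0103 from limma), and with libraries scaled to their totals this was 0.12 and 0.10 (adjusted p = 0.369 and 0.475). Chd4 had a log2 fold change of −0.18 ± 0.09 in the HBB line (adjusted p = 0.0993) and −0.22 ± 0.09 in the Pkp4 cUTR line (adjusted p = 0.0462). Its level was 7.31, 7.24, 7.17 and 6.84 log2 CPM in HBB cell bodies and 6.99, 6.97, 6.88 and 7.0 in HBB protrusions. Pkp4 cUTR samples had 7.28, 7.38, 7.30 and 7.07 in cell bodies and 7.11, 7.01, 6.91 and 7.11 in protrusions. The lowest cell-body value of each line was that of replicate 4, which lay below every protrusion sample in the HBB line and among the protrusions in the Pkp4 cUTR line, and without both replicates 4 Chd4 was lower in protrusions of both lines, by −0.28 ± 0.07 in each (adjusted p = 0.00164 and 0.0015). The Pkp4 cUTR call on all samples was lost without any 1 of 11 of the libraries, with values between −0.22 and −0.18. Chd8, which opposes β-catenin, had −0.22 ± 0.11 and 0.00 ± 0.10 (adjusted p = 0.0835 and 0.998), and Chd7, the gene of CHARGE syndrome and the least abundant member per kb, had −0.33 ± 0.28 and 0.13 ± 0.25 (adjusted p = 0.326 and 0.662).

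**Figure D2:**
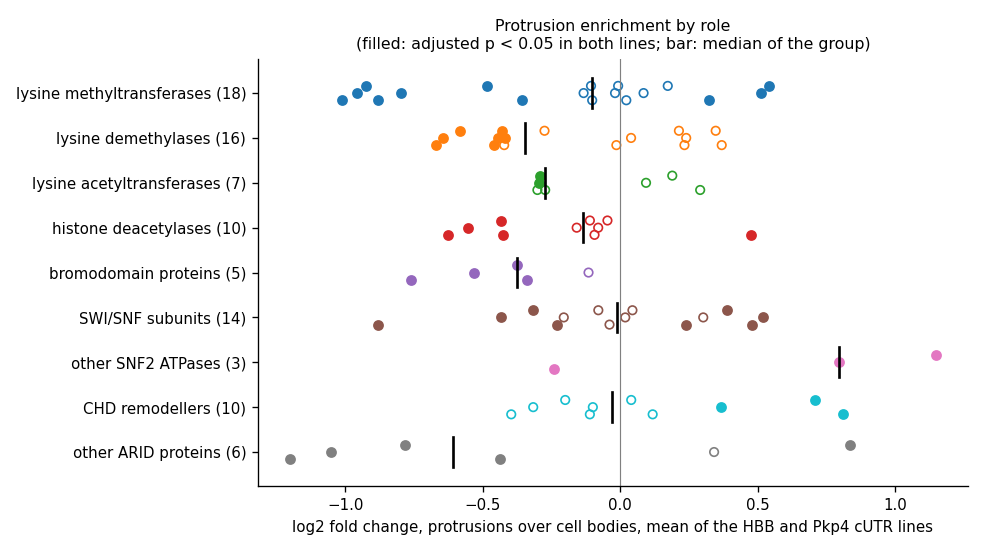
Log2 fold change of protrusions over cell bodies, averaged over the HBB and Pkp4 cUTR lines (x axis), for the 89 members by role (y axis, with the number of members). Filled points passed an adjusted p under 0.05 in both lines and bars mark the median of each role. Bromodomain proteins, demethylases and other ARID proteins lie mostly below 0, and SWI/SNF subunits lie on both sides of it.

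Of the 14 SWI/SNF subunits, 4 were higher in both lines (Brd7, Smarcc1, Smarce1 and Smarca2). Another 4 were lower in both (Arid1a, Arid1b, Smarcd1 and Smarcd2). Such a split is near that of all RNAs, of which 24.1% were higher and 25.3% lower in both. The median log2 fold change of the 14 subunits was −0.02 in the HBB line and 0.02 in the Pkp4 cUTR line. ARID1A, a DNA-binding subunit of the BAF form of the complex, is often mutated in tumours. Arid1a had 5.85, 5.83, 5.93 and 5.41 log2 CPM in HBB cell bodies and 4.91, 4.98, 4.72 and 4.89 in HBB protrusions. The Pkp4 cUTR line had 5.63, 5.97, 5.97 and 5.26 in cell bodies and 5.06, 4.76, 4.58 and 4.90 in protrusions. Protrusions lay below cell bodies in every sample of each line, and the log2 fold change was −0.88 ± 0.15 in both (adjusted p = 6.1e-05 and 7.35e-05 from limma). Arid1b was lower by −0.48 ± 0.12 and −0.39 ± 0.12 (adjusted p = 0.0024 and 0.0106).

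With the authors' library factors, the subunits that mark the other form of the complex, PBAF, had values of the opposite sign. Brd7 was higher in protrusions by 0.38 ± 0.08 and 0.40 ± 0.08 (adjusted p = 0.000677 and 0.00043 from limma). Arid2 had 0.22 ± 0.12 in the HBB line (adjusted p = 0.131) and 0.38 ± 0.12 in the Pkp4 cUTR line (adjusted p = 0.0126). The latter call was lost without replicate 4 of the Pkp4 cUTR protrusions (0.28, adjusted p = 0.0558). Scaled to library totals, Brd7 had 0.14 and 0.13 (adjusted p = 0.181 and 0.192) and Arid2 had −0.01 and 0.11 (adjusted p = 0.937 and 0.516). Pbrm1, which the symbols of these families do not cover, was higher by 0.63 and 0.92 (adjusted p = 0.000369 and 7.24e-06). The log2 ratio of Arid2 to Arid1a ran from −2.33 to −2.06 in HBB cell bodies and from −1.21 to −0.79 in HBB protrusions, and from −2.35 to −1.82 and −1.13 to −0.62 in the Pkp4 cUTR line, with no overlap between the fractions. This pair and the pairs below were chosen after their values were seen, so their ratios are given without a test. In each pair the first gene had the lower GC content (45.9% in Arid2 and 56.7% in Arid1a). A ratio does not cancel the trend with GC content described further on, whose part in the ratios was not tested.

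Smarca4 and Smarca2 encode BRG1 and BRM, the alternative ATPases of SWI/SNF. Smarca4 had 6.78, 6.75, 6.85 and 6.59 log2 CPM in HBB cell bodies and 6.69, 6.60, 6.70 and 6.66 in HBB protrusions. For the Pkp4 cUTR line the values were 6.52, 6.68, 6.70 and 6.43 in cell bodies and 6.58, 6.55, 6.63 and 6.55 in protrusions, so that the fractions overlapped in both lines. Its log2 fold change was −0.08 (95% interval −0.23 to 0.07) in the HBB line and 0.00 (−0.15 to 0.15) in the Pkp4 cUTR line, and scaled to library totals it was −0.32 and −0.26 (adjusted p = 0.00103 and 0.0046). Smarca2 was higher in protrusions by 0.51 ± 0.11 and 0.52 ± 0.11 (adjusted p = 0.000698 and 0.000818), with 0.28 and 0.25 under library totals (adjusted p = 0.0619 and 0.0892). The log2 ratio of Smarca2 to Smarca4, which a common factor for each library leaves as it is, ran from −3.65 to −3.23 in HBB cell bodies and −3.01 to −2.53 in HBB protrusions, and from −3.47 to −3.24 and −2.91 to −2.72 in the Pkp4 cUTR line. The fractions did not overlap.

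Among other subunits, Smarcd2 was lower by −0.27 ± 0.06 and −0.19 ± 0.06 (adjusted p = 0.00149 and 0.0175 from limma), the latter lost when Pkp4 cUTR cell-body replicate 1 was left out, and Smarce1 was higher by 0.51 ± 0.08 and 0.45 ± 0.08 (adjusted p = 2.4e-05 and 0.000105 from limma). Smarcb1, the core subunit lost in rhabdoid tumours, had −0.22 ± 0.09 in the HBB line (adjusted p = 0.0489) and −0.20 ± 0.09 in the Pkp4 cUTR line (adjusted p = 0.0721). The HBB call was lost without any 1 of 10 of the libraries and was −0.15 without replicate 4 of the HBB cell bodies. Per kb of exon Smarcb1 had the highest level of all members, at 118 CPM per kb over the 16 samples, where the median member had 4.44.

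**Figure D3:**
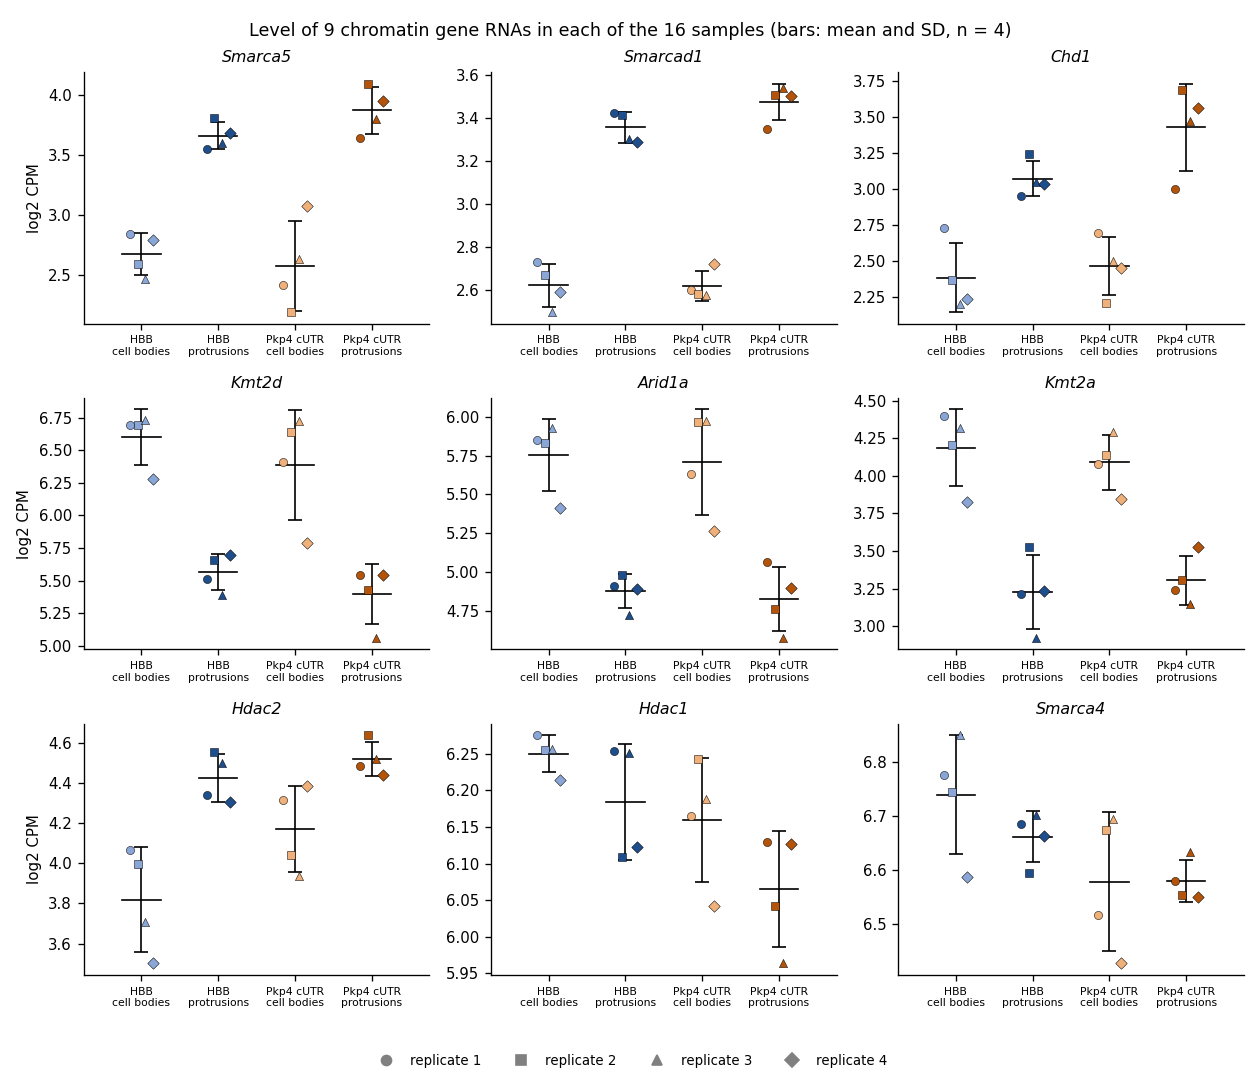
Log2 CPM (y axis) of 9 members in the 4 groups (x axis), with a symbol for each replicate, the mean as a horizontal bar and the SD as whiskers (n = 4). Protrusions lie above cell bodies in Smarca5, Smarcad1, Chd1 and Hdac2 and below them in Kmt2d, Arid1a and Kmt2a. Cell-body replicate 4, a diamond, lies lowest of its group in these last 3.

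Of the catalytic subunits of COMPASS-like complexes, Kmt2a, Kmt2b, Kmt2d, Setd1a and Setd1b were lower in protrusions of both lines and Kmt2c passed in neither. They methylate lysine 4 of histone H3, a mark of promoters and enhancers. Kmt2d had 6.69, 6.69, 6.73 and 6.28 log2 CPM in HBB cell bodies and 5.52, 5.66, 5.39 and 5.69 in HBB protrusions. Values in the Pkp4 cUTR line were 6.41, 6.64, 6.72 and 5.79 in cell bodies and 5.55, 5.43, 5.06 and 5.55 in protrusions. All protrusion samples were below all cell-body samples of their line, with log2 fold changes of −1.03 ± 0.16 and −0.99 ± 0.17 (adjusted p = 3.51e-05 and 6.69e-05 from limma).

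Kmt2a, the gene rearranged in mixed-lineage leukaemia, had 4.40, 4.21, 4.32 and 3.82 log2 CPM in HBB cell bodies and 3.22, 3.53, 2.92 and 3.24 in HBB protrusions. Pkp4 cUTR samples had 4.08, 4.14, 4.29 and 3.84 in cell bodies and 3.24, 3.30, 3.15 and 3.53 in protrusions. The fractions did not overlap, and the log2 fold changes were −0.97 ± 0.14 and −0.79 ± 0.14 (adjusted p = 1.4e-05 and 0.000133 from limma). Kmt2b was lower by −0.97 ± 0.14 and −0.88 ± 0.14 and Setd1a by −0.61 ± 0.09 and −0.36 ± 0.09, with adjusted p = 1.51e-05 and 4.78e-05 for the former and 2.5e-05 and 0.00351 for the latter.

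Setd1b was the least reproducible of these enzymes. It had 4.72, 4.72, 4.98 and 4.08 log2 CPM in HBB cell bodies and 3.63, 3.71, 3.85 and 3.98 in HBB protrusions. The Pkp4 cUTR line had 4.31, 4.71, 5.01 and 3.33 in cell bodies and 4.10, 2.84, 2.22 and 3.89 in protrusions, and replicate 4 of the cell bodies lay among the protrusions. The log2 fold changes were −0.85 ± 0.33 and −1.07 ± 0.36 (adjusted p = 0.0359 and 0.0177 from limma). The HBB call was lost when replicate 1, 2 or 3 of its cell bodies or of its protrusions was left out (−0.87 to −0.73), and the Pkp4 cUTR call without replicate 3 of its cell bodies or replicate 2 or 3 of its protrusions (−0.93 to −0.71). Kmt2c, in contrast, had −0.23 ± 0.13 and 0.03 ± 0.13 (adjusted p = 0.124 and 0.858), and its log2 ratio to its paralog Kmt2d ran from −3.52 to −3.22 in HBB cell bodies and from −2.63 to −2.52 in HBB protrusions. In the Pkp4 cUTR line the ratio ran from −3.67 to −2.75 in cell bodies and from −2.66 to −2.04 in protrusions.

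Other subunits of these complexes did not all follow the enzymes. Ash2l had log2 fold changes of 0.10 ± 0.06 and 0.07 ± 0.06 (adjusted p = 0.185 and 0.304 from limma). Of the subunits outside the members, Wdr5 was lower by −0.24 and −0.28, Men1 by −0.44 and −0.42, and Dpy30 was higher by 0.52 and 0.55 (all adjusted p under 0.05), while Rbbp5 had −0.21 and −0.35 (adjusted p = 0.0882 and 0.00714).

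Other members of the lysine methyltransferase group went both ways. Setd2, which methylates lysine 36 of histone H3 along transcribed genes, was higher in protrusions by 0.52 ± 0.10 and 0.56 ± 0.11 (adjusted p = 0.000321 and 0.000226 from limma). Setd8, now named Kmt5a, which monomethylates lysine 20 of histone H4, was higher by 0.50 ± 0.09 and 0.52 ± 0.09 (adjusted p = 8.34e-05 and 7.4e-05). Kmt2e was higher by 0.35 ± 0.10 and 0.30 ± 0.11 (adjusted p = 0.00749 and 0.0236). Its Pkp4 cUTR call was lost without replicate 4 of that line's cell bodies or of its protrusions. Scaled to library totals, Kmt2e had 0.11 and 0.03 (adjusted p = 0.438 and 0.843). Setd4 was lower by −0.89 ± 0.13 and −0.71 ± 0.13 (adjusted p = 1.27e-05 and 0.000242), and Setdb1, a methyltransferase of lysine 9 of histone H3, was lower in both lines as well. Setd7, which monomethylates lysine 4 of histone H3, had −0.06 ± 0.11 and 0.03 ± 0.11 (adjusted p = 0.619 and 0.849). Setd6 had −0.06 ± 0.08 in the HBB line (adjusted p = 0.525) and −0.21 ± 0.08 in the Pkp4 cUTR line (adjusted p = 0.0336), a call lost without any 1 of 3 of the libraries. Setd3, an actin histidine methyltransferase, was higher in the HBB line, by 0.24 ± 0.06 (adjusted p = 0.00283), and had 0.11 ± 0.06 in the Pkp4 cUTR line (adjusted p = 0.139). Scaled to library totals these were 0.00 and −0.16 (adjusted p = 0.998 and 0.0421).

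Of the 16 lysine demethylases, 7 were lower in both lines (Kdm2a, Kdm2b, Kdm3b, Kdm4a, Kdm4b, Kdm5c and Kdm6b) and none was higher in both. Among all RNAs 25.3% were lower in both and 24.1% higher. The log2 fold changes of the 16 ran from −0.69 to 0.38 in the HBB line, with a median of −0.34, and from −0.71 to 0.52 in the Pkp4 cUTR line, with a median of −0.36. Kdm4b was lower by −0.69 ± 0.12 and −0.60 ± 0.12 and Kdm3b by −0.63 ± 0.14 and −0.71 ± 0.14. Kdm4a, the most abundant demethylase per kb, was lower by −0.40 ± 0.12 and −0.46 ± 0.12 (adjusted p = 0.0068 and 0.00248). Kdm1a, also called LSD1, had 0.02 ± 0.06 and −0.05 ± 0.06 (adjusted p = 0.772 and 0.5). In the Pkp4 cUTR line alone Kdm5a and Kdm7a passed the threshold as higher and Kdm8 as lower, though the difference between the lines passed for none of them. Kdm6b, which demethylates lysine 27 of histone H3, was lower by −0.58 ± 0.13 and −0.58 ± 0.14 (adjusted p = 0.00118 and 0.00146), while its X-linked paralog Kdm6a had 0.38 ± 0.24 and 0.32 ± 0.24 (adjusted p = 0.182 and 0.275) at a mean of 0.55 log2 CPM.

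Histone deacetylases showed a contrast between close relatives. Hdac1 and Hdac2 are class I enzymes that sit together in the NuRD, Sin3 and CoREST complexes. Hdac1 had 6.28, 6.25, 6.26 and 6.21 log2 CPM in HBB cell bodies and 6.25, 6.11, 6.25 and 6.12 in HBB protrusions. For the Pkp4 cUTR line the values were 6.16, 6.24, 6.19 and 6.04 in cell bodies and 6.13, 6.04, 5.96 and 6.13 in protrusions. The fractions overlapped, and the log2 fold changes were −0.07 (95% interval −0.20 to 0.07) and −0.09 (−0.23 to 0.04), with adjusted p = 0.384 and 0.22. Scaled to library totals these became −0.30 and −0.36 (adjusted p = 0.00187 and 0.000489), and after quantile normalization the HBB value was 0.01.

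Hdac2 was higher in protrusions. It had 4.07, 3.99, 3.71 and 3.50 log2 CPM in HBB cell bodies and 4.34, 4.55, 4.50 and 4.30 in HBB protrusions. Values in the Pkp4 cUTR line were 4.31, 4.04, 3.94 and 4.38 in cell bodies and 4.48, 4.64, 4.52 and 4.44 in protrusions. Protrusions were above cell bodies in every sample of each line, narrowly so in the Pkp4 cUTR line (4.44 against 4.38 at the nearest). The log2 fold changes were 0.60 ± 0.12 and 0.35 ± 0.12 (adjusted p = 0.000373 and 0.0157 from limma), and the latter was 0.27 when replicate 3 of that line's cell bodies was left out (adjusted p = 0.0662) and 0.09 under library totals (adjusted p = 0.562). The log2 ratio of Hdac2 to Hdac1 ran from −2.71 to −2.21 in HBB cell bodies and −1.91 to −1.56 in HBB protrusions, without overlap, and from −2.25 to −1.66 and −1.69 to −1.40 in the Pkp4 cUTR line, with overlap.

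The class II enzymes Hdac4, Hdac6, Hdac7 and Hdac10 were lower in protrusions of both lines. Hdac6 is a cytoplasmic enzyme known for removing acetyl groups from tubulin. It had 5.52, 5.34, 5.65 and 5.35 log2 CPM in HBB cell bodies and 4.97, 5.04, 4.97 and 4.98 in HBB protrusions. Pkp4 cUTR samples had 5.28, 5.34, 5.47 and 5.17 in cell bodies and 4.96, 4.80, 5.04 and 4.95 in protrusions. The fractions did not overlap, and its log2 fold changes were −0.48 ± 0.08 and −0.37 ± 0.08 (adjusted p = 8.17e-05 and 0.000941 from limma).

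Hdac10, which deacetylates polyamines, was lower by −0.74 ± 0.07 and −0.52 ± 0.07 (adjusted p = 7.55e-08 and 4.11e-06 from limma). Hdac7 was lower by −0.59 ± 0.08 and −0.51 ± 0.08, and Hdac4 by −0.47 ± 0.07 and −0.40 ± 0.07. Hdac8, of class I, had −0.11 ± 0.10 and −0.21 ± 0.10 (adjusted p = 0.369 and 0.0754). Hdac5, a further class IIa enzyme, had −0.15 ± 0.08 and −0.04 ± 0.08 (adjusted p = 0.103 and 0.71), and Hdac3 had −0.05 ± 0.06 in each line (adjusted p = 0.498 and 0.48).

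The acetyltransferases Kat2a and Kat5 were lower in both lines, and none of the 7 was higher in both, where 25.3% and 24.1% of all RNAs were. Kat2a, known as GCN5, had −0.34 ± 0.08 and −0.25 ± 0.08 (adjusted p = 0.00105 and 0.0118 from limma), and Kat5, known as TIP60, had −0.28 ± 0.07 and −0.30 ± 0.07 (adjusted p = 0.00342 and 0.00219). Kat2b, the paralog of Kat2a, had 0.31 ± 0.13 in the HBB line (adjusted p = 0.0464), a call lost without any 1 of 11 of the libraries, and 0.28 ± 0.14 in the Pkp4 cUTR line (adjusted p = 0.0909). The Kat2a call in the Pkp4 cUTR line was lost without replicate 2 of its protrusions (−0.20, adjusted p = 0.0507).

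Among bromodomain proteins, readers of acetylated lysines, Brd1 was lower in protrusions by −0.71 ± 0.09 and −0.81 ± 0.10 (adjusted p = 5.64e-06 and 1.86e-06 from limma). Brd2 was lower by −0.52 ± 0.10 and −0.55 ± 0.10 (adjusted p = 0.000284 and 0.000175) and Brd8 by −0.29 ± 0.11 and −0.39 ± 0.10 (adjusted p = 0.0238 and 0.00434), of which the HBB call of Brd8 was lost when replicate 1, 2 or 3 of the HBB cell bodies or replicate 3 of the HBB protrusions was left out. Brd3 had −0.13 ± 0.09 and −0.10 ± 0.09 (adjusted p = 0.225 and 0.374).

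The ARID proteins outside SWI/SNF were 6, of which 4 were lower in protrusions of both lines (25.3% of all RNAs) and 1 was higher (24.1%). Arid5b, a partner of the demethylase PHF2, had 2.19, 2.26, 2.18 and 1.71 log2 CPM in HBB cell bodies and 0.64, 1.15, 0.82 and 1.28 in HBB protrusions. For the Pkp4 cUTR line the values were 1.90, 2.50, 2.55 and 1.19 in cell bodies and 1.31, 0.52, 0.12 and 1.13 in protrusions, where replicate 4 of the cell bodies overlapped with the protrusions. The log2 fold changes were −1.13 ± 0.30 and −1.27 ± 0.32 (adjusted p = 0.00334 and 0.0024 from limma), and without both replicates 4 of the cell bodies they were −1.24 ± 0.23 and −1.52 ± 0.24.

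Arid3b was lower as well, at −0.95 ± 0.24 and −1.15 ± 0.26 (adjusted p = 0.00218 and 0.00118 from limma). It had 0.56, 0.74, 0.50 and 0.20 log2 CPM in HBB cell bodies and −0.94, −0.40, −0.34 and −0.02 in HBB protrusions, and 0.33, 0.21, 0.72 and −0.08 in Pkp4 cUTR cell bodies and between −1.20 and −0.55 in Pkp4 cUTR protrusions. These values are near 1 CPM, above the detection floor, and the fractions did not overlap in either line.

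Arid3a was lower by −0.80 ± 0.16 and −0.77 ± 0.18 (adjusted p = 0.000448 and 0.00172 from limma). Arid5a, the most abundant of these 6 per kb, was lower by −0.49 ± 0.14 and −0.38 ± 0.15 (adjusted p = 0.00714 and 0.0403), of which the Pkp4 cUTR call was lost without any 1 of 4 of the libraries.

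Arid4b, a subunit of the Sin3 deacetylase complex, was higher. It had 1.21, 1.09, 0.96 and 0.84 log2 CPM in HBB cell bodies and 1.57, 1.90, 1.51 and 1.44 in HBB protrusions. Values in the Pkp4 cUTR line were 0.96, 0.30, 0.52 and 0.53 in cell bodies and 1.15, 2.11, 1.72 and 1.84 in protrusions. The fractions did not overlap, with log2 fold changes of 0.57 ± 0.19 and 1.09 ± 0.20 (adjusted p = 0.0147 and 0.000196 from limma), of which the former was 0.47 without replicate 2 of the HBB protrusions (adjusted p = 0.0569).

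Chromatin genes outside these families were counted from a list of 99 subunits of Polycomb, NuRD, INO80, Sin3 and other complexes and of DNA methylation, of which 98 were in the table. In both lines 20 were higher in protrusions and 29 lower, with medians of −0.10 in the HBB line and −0.06 in the Pkp4 cUTR line. Among them Bptf was higher by 0.35 and 0.49, Bmi1 by 0.77 in each line and Suz12 by 0.41 and 0.43, while Trrap was lower by −0.64 and −0.61 and Ep300 by −0.48 and −0.53 (all adjusted p under 0.05). Zinc finger genes of the Zfp kind, many of which recruit chromatin modifiers, had 45 of 253 higher and 78 lower in both lines. Cytosolic ribosomal protein genes, by comparison, had 79 of 85 higher and 0 lower (adjusted p under 0.05 from limma in each line, with the same 0 lower within each line alone).

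The members were long, with a median transcript of 5168 nt against 2944 nt over all RNAs with a coding transcript, and of ordinary base composition, with a median GC content of 51.4% against 50.9%. The enrichment was lower at higher GC content of the transcript. Across the 89 members the Spearman correlation was −0.65 in the HBB line and −0.64 in the Pkp4 cUTR line, where across 11238 other RNAs it was −0.40 and −0.39. The trend was not particular to the members, since across 251 zinc finger genes of the Zfp kind it was −0.63 and −0.71. Across the 98 other chromatin genes it was −0.44 and −0.40. Among members it was similar for the coding part alone (−0.66 and −0.64) and weaker for the third codon position (−0.49 and −0.50). With transcript length it was −0.10 and −0.02 among members, against −0.26 and −0.23 among the others. These are correlations across genes, which share the same 16 libraries and are not independent replicates.

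Members higher in both lines had a median GC content of 45.2% (40.7% to 56.1%) and those lower in both had 54.6% (47.4% to 59.6%). Of the 46 members with a GC content above the median of all RNAs, 4 were higher and 29 lower in the HBB line, and 4 higher and 31 lower in the Pkp4 cUTR line. Of the 43 at or below it, 12 were higher and 5 lower in the HBB line, and 13 higher and 8 lower in the Pkp4 cUTR line. The same split over all RNAs in the HBB line gave 1037 higher and 2579 lower of 5663 above it and 2151 higher and 989 lower of 5664 at or below it.

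Some members went against this pattern. Chd3 (56.1%) and Setd8 (54.7%) were rich in G and C yet higher in protrusions, and Arid5b (47.4%), the most depleted member, was poorer in them than the median RNA. Hdac5 had the highest GC content of all members (61.0%) and passed in neither line. After the trend of each sample's values with GC content was removed, 15 members were higher and 24 lower in the HBB line (28.0% and 27.9% of all RNAs) and 17 higher and 28 lower in the Pkp4 cUTR line (27.6% and 28.5%), with medians of −0.09 and −0.05. Smarca5 then had 0.55 and 0.78, Kmt2d −0.76 and −0.78, and Arid1a −0.64 and −0.68 (all adjusted p under 0.05), whereas Arid4b in the HBB line had 0.13 (adjusted p = 0.483) and Hdac2 in the Pkp4 cUTR line 0.13 (adjusted p = 0.255). Smarca4 then had 0.14 and 0.19 (adjusted p = 0.0427 and 0.00992). With the trend in transcript length removed instead, 24 members were higher and 32 lower in the HBB line (28.4% and 29.8% of all RNAs). In the Pkp4 cUTR line 23 were then higher and 33 lower (28.3% and 29.8%). The medians were −0.09 and −0.03. The part of base composition or length in the enrichment was not tested beyond this.

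**Figure D4:**
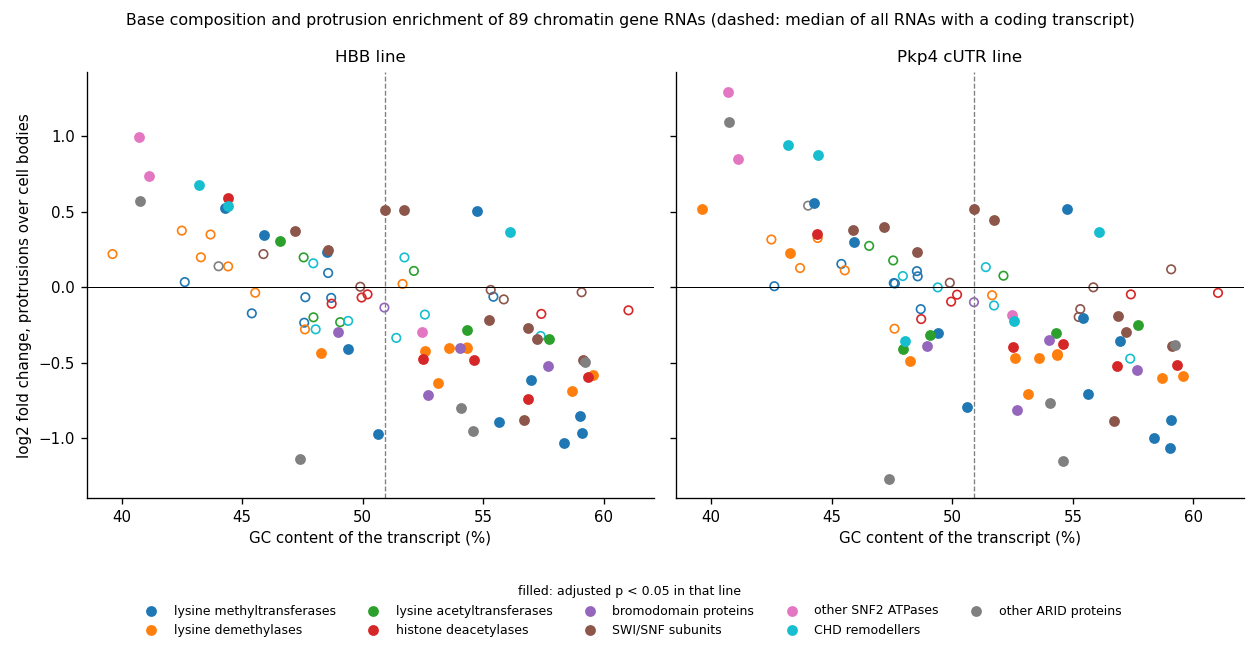
GC content of the transcript in percent (x axis) against log2 fold change of protrusions over cell bodies (y axis) for the 89 members in the HBB line (left) and the Pkp4 cUTR line (right), coloured by role and filled where the adjusted p in that line was under 0.05. The dashed line is the median GC content of all RNAs with a coding transcript, 50.9%. Points above 0 lie mostly to its left and points below 0 mostly to its right.

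Between the lines the enrichment differed at an adjusted p under 0.05 from limma for 0 of the 89 members and 0 of the 12900 RNAs. At an unadjusted p under 0.05 there was 1 member, and at an unadjusted p under 0.1 there were 3 more enriched in the Pkp4 cUTR line (3.44% of all RNAs) and 0 less enriched (2.36%). These were Hdac10, with a difference of log2 fold changes of 0.21 (95% interval 0.02 to 0.41), Setd1a with 0.26 (−0.02 to 0.54) and Arid4b with 0.52 (−0.06 to 1.10), for each of which the adjusted p = 0.9997. Left out singly, replicate 2 of the HBB cell bodies or replicate 3 of the HBB protrusions brought the count to 1, Pkp4 cUTR cell-body replicate 4 to 5, and replicate 4 of the HBB cell bodies or replicate 1 of the Pkp4 cUTR protrusions to 7. The shares of all RNAs under these fits are not given here, so these counts are not set against them. Chd8 followed with 0.22. The median difference over members was 0.01. Of the opposite sign, the members with the smallest p were Setd3 with −0.13, Hdac2 with −0.24, Chd1l with −0.32 and Setd6 with −0.14, none under 0.1.

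Fitted without a block, few members differed in level between the lines, and more did with the replicate number as a block, as given below. In cell bodies 1 member was higher in the Pkp4 cUTR line (3.42% of all RNAs), Ash2l, and 2 were lower (5.55%), Hdac4 and Hdac7. In protrusions Ash2l was higher (2.89% of all RNAs) and Hdac4 lower (4.26%). ASH2L is the shared core subunit of the COMPASS-like complexes, and HDAC4 and HDAC7 are class IIa deacetylases, which shuttle between nucleus and cytoplasm.

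Ash2l had 5.26, 5.38, 5.23 and 5.23 log2 CPM in HBB cell bodies and 5.61, 5.55, 5.54 and 5.53 in Pkp4 cUTR cell bodies, and 5.30, 5.37, 5.39 and 5.41 in HBB protrusions and 5.62, 5.68, 5.68 and 5.55 in Pkp4 cUTR protrusions. The lines did not overlap in either fraction, and the log2 fold changes of the Pkp4 cUTR line over the HBB line were 0.28 ± 0.06 in cell bodies (adjusted p = 0.00488 from limma) and 0.26 ± 0.06 in protrusions (adjusted p = 0.0127).

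Hdac4 had 6.06, 6.15, 6.13 and 6.05 log2 CPM in HBB cell bodies and 5.65, 5.79, 5.85 and 5.52 in Pkp4 cUTR cell bodies, and 5.67, 5.62, 5.60 and 5.61 in HBB protrusions and 5.35, 5.32, 5.24 and 5.31 in Pkp4 cUTR protrusions. The lines did not overlap, with log2 fold changes of −0.40 ± 0.07 in cell bodies (adjusted p = 0.00085 from limma) and −0.32 ± 0.07 in protrusions (adjusted p = 0.00958).

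The members next in order of p did not pass in either fraction. Those with positive log2 fold changes of the Pkp4 cUTR line over the HBB line in cell bodies were Hdac2 (0.34, adjusted p = 0.0844 from limma), Smarce1 (0.20, adjusted p = 0.125) and Hdac8 (0.23, adjusted p = 0.131), and those with negative ones were Chd3 (−0.34, adjusted p = 0.0671), Arid3a (−0.43, adjusted p = 0.0771) and Setd4 (−0.26, adjusted p = 0.150). In protrusions the positive values were those of Smarcd2 (0.19, adjusted p = 0.0958), Chd7 (0.76, adjusted p = 0.123) and Chd8 (0.29, adjusted p = 0.127), and the negative ones those of Chd3 (−0.34, adjusted p = 0.0783), Hdac7 (−0.20, adjusted p = 0.165) and Kat2b (−0.31, adjusted p = 0.182).

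Hdac7 had 8.52, 8.50, 8.48 and 8.35 log2 CPM in HBB cell bodies and 8.12, 8.25, 8.39 and 7.97 in Pkp4 cUTR cell bodies, which overlapped through replicate 4 of the former and replicate 3 of the latter. Its log2 fold change there was −0.28 ± 0.08 (adjusted p = 0.0446 from limma), and in protrusions it was −0.20 ± 0.08 (adjusted p = 0.165). The call in cell bodies was lost without any 1 of 9 of the libraries, with values from −0.30 to −0.21 that were nearest 0 when Pkp4 cUTR cell-body replicate 4 was left out (adjusted p = 0.148), and without both replicates 4 it was −0.25 (adjusted p = 0.0986).

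**Figure D5:**
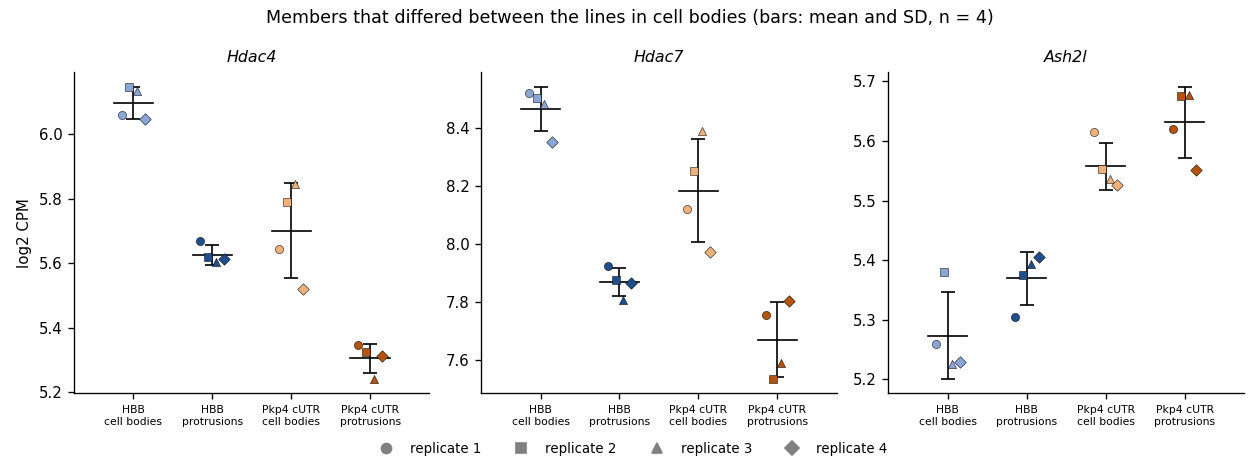
Log2 CPM (y axis) of Hdac4, Hdac7 and Ash2l in the 4 groups (x axis), with a symbol for each replicate, the mean as a horizontal bar and the SD as whiskers (n = 4). Within each fraction the Pkp4 cUTR samples lie below the HBB samples in Hdac4 and above them in Ash2l.

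Samples with the same number in both lines varied together, so the lines were also compared with the replicate number as a block. With a replicate block shared by the fractions 5 members passed in cell bodies (Arid5a, Ash2l, Chd3, Hdac4 and Hdac7) and 3 in protrusions (Ash2l, Hdac4 and Kdm3a), where 11.2% and 10.3% of all RNAs passed. With a replicate block within each fraction 17 members passed in cell bodies, 5 higher and 12 lower, and 15 in protrusions, 7 higher and 8 lower, where 22.5% and 19.3% of all RNAs passed. With the latter, Hdac7 was lower in the Pkp4 cUTR line in both fractions (−0.28 and −0.20, adjusted p = 0.0027 and 0.0273 from limma), as was Chd3 (−0.34 in each, adjusted p = 0.000819 and 0.0011). With no block, the count in cell bodies was 5 when HBB cell-body replicate 4 was left out and 6 when Pkp4 cUTR cell-body replicate 3 was, and the count in protrusions was 1 when HBB protrusion replicate 1 was left out. For these 3 fits the shares of all RNAs are not given here. The lines are stable transductants, so the construct and the history of each line cannot be told apart.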

How the data were processed

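RNA-Seq was performed on total RNA from 4 replicates each of protrusions and cell bodies of the HBB and Pkp4 cUTR NIH/3T3 lines. The authors prepared stranded libraries, aligned reads to mm10 with STAR 2.4.2a and used Rsubread for gene counts. Normalization used limma-voom (limma 3.26.1), and the stated filter kept RNAs with a log2 CPM above 0.5 in at least 1 sample. In the deposited values Setdb2 reached at most 0.43 log2 CPM, so not every listed RNA meets that filter as stated. The deposited values are log2 CPM per sample, containing 0.5 added reads and library factors whose method, like the strand setting of the counting, is not given in the sources used here. Reads of overlapping genes or paralogs are therefore uncertain.

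Samples were grouped by the line and fraction in their labels. Whole reads were recovered from the log2 CPM, with 100% of values within 0.01 of a whole number, and were fitted with the authors' library sizes in limma-voom (limma 3.58.1, R 4.3.3), with 1 mean per group, no block and Benjamini-Hochberg adjustment over all 12900 RNAs. The planned test assumed either recovered reads or log2 values, and the former applied. Errors after ± are standard errors. The fit was tested on simulated reads.

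The replicate numbers come from the sample labels. Deviations of same-numbered samples correlated at 0.483 on average between the lines' cell bodies (lowest 0.331) and 0.316 between their protrusions (lowest 0.196), across 10154 RNAs, so the numbers pair the lines. Between fractions they did not pair in every case. Positions, lengths and GC content came from GENCODE vM21 (GRCm38), which matched 12768 RNAs and all 89 members, 1 by an older symbol. Levels per kb use the union of exons.

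Genes named with values were 8 family representatives, members above 2-fold in either line, the 8 highest and 8 lowest by mean enrichment among those called in both lines, the 4 with the smallest p per direction in the other 3 contrasts, and the most abundant member per kb of each role. The values of 1 member are not reported here. Other members are named where a count, a complex or a paralog is described. The members, lists and tests were chosen with earlier results of these data known. Alternatives were other scalings, no weights, log2(CPM + 1), filters, replicate blocks, leaving out each sample, and, added after the data were seen, removal of GC or length trends and a block within each fraction.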

Additional observations from a re-analysis of the deposited data

Results flagged for a closer look

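Of 84 groups of 4 samples examined (21 members with values in every sample, in 4 groups), 6 held a sample far from the other 3, with a gap to its nearest neighbour above Dixon's critical share of the group's range. Chance gives about 1 in 20 groups. Replicate 4 of the HBB cell bodies was the sample in 4 of these 6 groups, as the lowest in Arid5b (1.71 against 2.18 to 2.26 log2 CPM, gap 0.854 of the range), Kmt2d (6.28 against 6.69 to 6.73, gap 0.919), Chd9 (0.64 against 1.59 to 1.74, gap 0.867) and Hdac10 (5.02 against 5.14 to 5.15, gap 0.901). Replicate 4 of the Pkp4 cUTR cell bodies was the highest of its group in Smarcad1 (2.72 against 2.58 to 2.60, gap 0.846). Replicate 2 of the HBB protrusions was the highest in Hdac6 (5.04 against 4.97 to 4.98, gap 0.834). In 5 of the 6 that value lay toward the other fraction of its line. Chd9 was the exception, as replicate 4 of the HBB cell bodies lay further from the protrusions than the other 3.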

How the results depend on the processing

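Of the 47 members called in both lines, 30 kept both calls under each of 25 alternatives, or 24 for Arid3b. These were other scalings, filters and blocks, and samples left out, without removal of the GC or length trend. With the GC trend removed, Smarca5 and Kmt2d, which were among the 30, kept both calls. Setd1a and Kdm4a, also among them, each lost 1. Setd1a had −0.15 in the Pkp4 cUTR line and Kdm4a −0.23 in the HBB line (adjusted p = 0.131 and 0.0617 from limma). Scaled to library totals, 7 members were higher and 54 lower in the HBB line (median −0.41), against 15.0% and 43.5% of all RNAs. In the Pkp4 cUTR line 8 were higher (median −0.41), against 13.9% of all RNAs. In both lines 6 were higher and 50 lower, for which the shares of all RNAs under that scaling are not given here. Between the lines' protrusions 1 differed (6.16% of all RNAs). Smarca4 turned to −0.26 and Setd3 to −0.16 in the Pkp4 cUTR line. With a fold change above 2 and an unadjusted p under 0.05, 0 were higher and 2 lower in the HBB line, 2 higher and 3 lower in the Pkp4 cUTR line, and 0 differed between the lines' cell bodies or protrusions. The shared replicate block gave 5 members between cell bodies. The block within each fraction gave 11 members at an unadjusted p under 0.1 for the difference of enrichment (11.3% of all RNAs), 17 between cell bodies and 15 between protrusions. The replicate block within each line, where numbers did not pair the fractions (mean correlation 0.178 in the HBB line and −0.161 in the Pkp4 cUTR line), gave 16 higher and 34 lower in the HBB line and 17 higher and 37 lower in the Pkp4 cUTR line. Without both replicates 4 of the cell bodies, 7 members differed in enrichment (7.02% of all RNAs) and 5 between protrusions (9.94%), and Smarca4 was −0.049 in the Pkp4 cUTR line. With the GC trend removed 5 members differed in enrichment (7.05%), and Smarca4 was 0.14 in the HBB line. With the length trend removed it was 0.071 there, and 5 members differed between protrusions (12.8%). Quantile normalization turned Hdac1 to 0.0090 in the HBB line. Leaving out 1 sample gave 1 to 7 members differing in enrichment, 2 to 6 between cell bodies and 1 to 3 between protrusions, and −0.049 to 0.040 for Smarca4 in the Pkp4 cUTR line. Shares of all RNAs are not given for the fits that left out 1 sample or for the enrichment with a block within each line. Whether those counts followed all RNAs therefore cannot be read from them. The causes of these shifts were not tested.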
